A study of Oncorhynchus mykiss with 525 samples.

Results

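The comparison was of RTgill-W1 cells exposed to the chemical coded met at its highest concentration with cells that received the solvent. The members were the 3 wells labelled met at concentration step 1, with 1 well on each of plates 1, 2 and 3, set against the 24 DMSO wells of the same plates, 8 per plate. These 27 wells were a small part of the 525 labelled wells of the series, in which single wells of 96-well plates were lysed after 24 h and their RNA was tagged and sequenced in pools. Each plate held another passage of the cell line, and the submitters count passages as the biological replicates. The label gives the met concentration as 56.47 with no unit, and the code is not spelled out, so the chemical is called met throughout. The design text says that pesticides were dissolved in DMSO or in water without saying which applied to met, so whether the met wells also held DMSO is not known. The met wells stood in row H, column 6 of each plate, and the solvent wells in rows A to H of column 10 or 11, in another library pool than the met wells. The remaining groups used were the lower met concentrations of the same plates, the chemical imz at 111.1 (3 wells) and col at 3.99 (2 wells kept) in row H of the same plates, and dip at 57.64 (3 wells) on plates 4, 5 and 6 with the 15 DMSO wells of those plates.

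RTgill-W1 is an epithelial cell line derived from the gill of rainbow trout (Oncorhynchus mykiss). The gill epithelium is the surface across which a fish takes up oxygen, exchanges ions and meets chemicals dissolved in the water, and the cell line serves as a substitute for live fish in toxicity testing. The stated purpose of the study was to find transcriptomic points of departure, meaning the lowest doses at which transcripts of exposed cells begin to differ from those of control cells. Trout descend from an ancestor whose whole genome was duplicated, so many genes exist as closely similar copies among which reads can be split.

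The tables count reads per Ensembl gene ID, and none of the 44260 IDs matched the trout name table available here (0 matches). Genes are therefore given by ID, at most 2 that rose and 2 that fell, no gene is assigned a function, and the gill cell identity could not be checked against marker genes. The 3 met wells had totals of 125357, 48188 and 67009 counts on plates 1, 2 and 3. The solvent wells had totals of 25250 to 539790 counts, with a median of 174236. Relative to the median of the remaining analysed wells in their own library pool, the met wells reached 24.3% to 38.4%. The imz wells, which shared those pools and row H, reached 53.5% to 113%. These pools also held the wells of a further chemical, which were not analysed here and do not enter the median. Met at the next lower concentration reached 80.3% to 120%. The 24 solvent wells, in other pools, ran from 15.1% to 290% by the same measure, with a median of 117%. The shallowest solvent wells were thus as shallow as the met wells relative to their pools. Fewer cells in a well, less RNA per cell and other sources of a low total cannot be told apart from these totals. All 27 wells passed the minimum of 24094.8 counts, which is 10% of the median well of the series. In the col group, 1 of 3 wells fell below that minimum with 5764 counts and was left out.

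Met at 56.47 changed a large part of the tested IDs. Of 3795 IDs with enough counts to be tested, 1031 (27.2%) differed from solvent at an FDR below 0.05 by edgeR's quasi-likelihood test, and 1435 had an unadjusted p below 0.05. FDR is the Benjamini-Hochberg adjusted p over all tested IDs, and abundance is given below as CPM, the count of an ID per scaled total of the tested IDs in its well. With TMM scaling, which aligns the bulk of the IDs between wells, 344 IDs (9.06%) were higher and 687 (18.1%) were lower in met wells. Leaving out 1 met well gave 480 calls of 4764 IDs without plate 1, 1065 of 4646 without plate 2 and 660 of 4713 without plate 3. When all wells above 48188 counts were thinned to that total, 371 of 814 IDs were called. In that fit the 3 solvent wells under that total kept their counts. A change of at least 2-fold was fitted for 296 of the higher IDs and for 533 of the 583 lower IDs that had a count in a met well, and of at least 8-fold for 6 and 70 of them. The median log2 fold change was 1.52 among the higher IDs and -1.97 among these 583 lower IDs.

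The balance between rises and falls depended on the scaling of the wells. TMM placed the median of all tested IDs at a log2 fold change of -0.32, the ratio-based RLE factors placed it at 0.08, and DESeq2 placed it at 0.08, which is 0.40 above TMM. Accordingly, 33.4% of the calls were rises with TMM, 56.6% with RLE factors (582 higher and 446 lower) and 64.9% with DESeq2 (608 higher and 329 lower). Among the IDs called by each procedure, over 2-fold shifts relative to its own median were counted upward for 337 and downward for 572 IDs with TMM. With DESeq2 they were upward for 536 and downward for 299 IDs. The calls themselves were made against a fold change of 0 in each scaling, so these counts still carry the difference in scaling. All 3 procedures called 667 IDs, each with the same sign in all 3, of which 343 were higher and 324 were lower. DESeq2 also scales by ratio-based factors, so the 3 procedures hold only 2 kinds of scaling. The 667 IDs are on that account not calls of 3 independent methods. The 667 IDs comprised 99.7% of the TMM rises and 47.2% of the TMM falls.

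**Figure D1:**
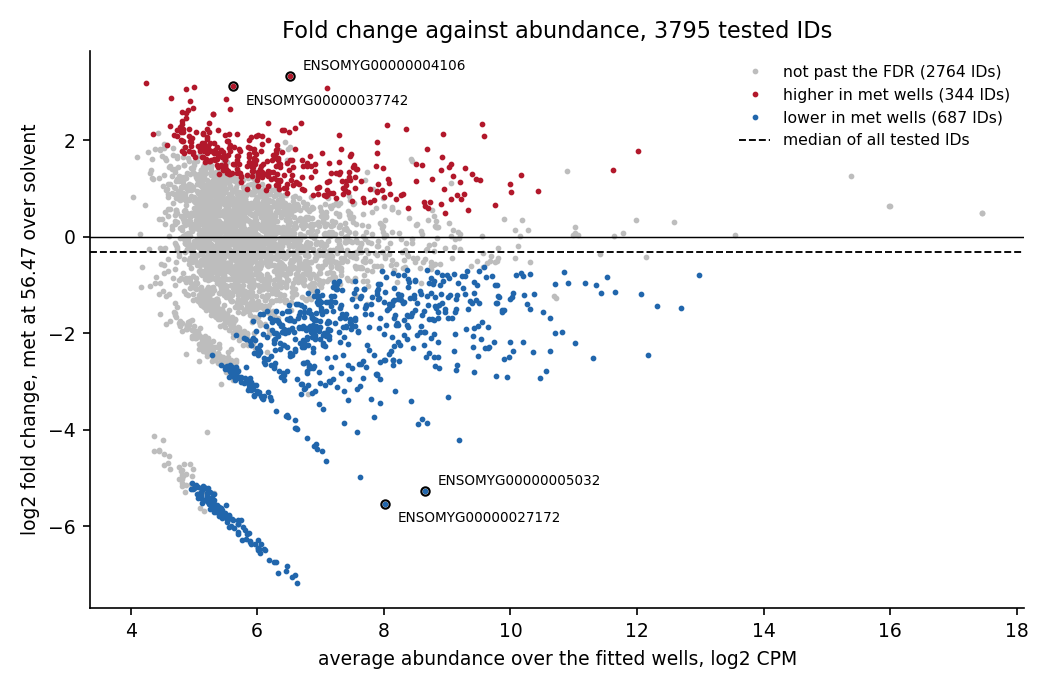
Log2 fold change of met at 56.47 over solvent (vertical axis, edgeR with TMM) against the average abundance of each tested ID (horizontal axis, log2 CPM), 1 point per ID. Of 3795 IDs, 344 are higher (red) and 687 lower (blue) in met wells, the dashed line is the median at -0.32, and the separate band at the lower left holds IDs with no count in any met well, whose fitted value depends on a prior count.

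Falls were called more often among abundant transcripts. When the tested IDs were divided into 4 equal parts by average abundance, the share called lower was 4.95% in the least abundant part, then 8.11%, 16.2% and 43.1% in the most abundant part, which began at 106 CPM. The share called higher varied less across the same parts, at 8.22%, 6.32%, 10% and 11.7%. DESeq2 called 0, 28, 38 and 263 IDs lower and 131, 134, 164 and 179 IDs higher across these parts. The median standard error of the log2 fold change was 0.88 in the least abundant part and 0.35 in the most abundant part, so smaller changes could be detected in abundant IDs. The least abundant part spanned 16.4 to 40.7 CPM, and 3 counts over the met wells correspond to 15.6 CPM. Falls there had little room to be called, while rises had no such limit. The part of these limits in the pattern was not tested.

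Many of the falls ended at the detection limit of the met wells. No count was found in any met well for 104 of the IDs called lower, and for 34 further IDs that were not called. Over the 3 met wells together, a floor set at 3 counts corresponds to 15.6 CPM. This floor is an allowance for counting error in IDs with no count and not a hard limit. Against this floor the 104 IDs had approximate bounds of 1.45-fold to 6.07-fold lower in met wells, with a median bound of 2.10-fold and 58 of them at 2-fold or more. Their solvent means ran from 22.6 to 94.9 CPM. The met wells differed from each other by more than counting error, so a true fold can be smaller than its bound. With these IDs set at their bound, the median log2 fold change of all 687 falls was -1.84, against a fitted -2.13. No ID called higher was without counts in all solvent wells (0 IDs). This number cannot be set against the 104, since the 24 solvent wells together were far deeper than the 3 met wells. All 3 met wells exceeded all 24 solvent wells for 131 IDs (3.45%), of which 127 were called, and lay below all of them for 182 IDs (4.8%), of which 181 were called.

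The 4 IDs with the largest changes at 100 CPM or more in the higher group, changed in the same direction on all 3 plates, are described by well. ENSOMYG00000004106 had the largest rise. It had 481, 412 and 758 CPM in the met wells of plates 1, 2 and 3 (43, 21 and 39 counts), against 0 to 90.6 CPM in the solvent wells, with a median of 49.7 CPM. Every met well stood above every solvent well of all 3 plates. The means were 550 ± 183 CPM in met wells (SD, n = 3) and 49.6 ± 23.3 CPM in solvent wells (SD, n = 24). The log2 fold change was 3.33 with a standard error of 0.26 and an adjusted p of 4.69e-15 by edgeR. For all named IDs this model counts the 24 solvent wells as separate, although the 8 of a plate share a passage. With the solvent wells summed per plate, the edgeR adjusted p of this ID was 1.36e-08.

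ENSOMYG00000037742 had the second largest rise, from few counts. It had 156, 314 and 233 CPM in the met wells (14, 16 and 12 counts), against 0 to 65.2 CPM in the solvent wells, with a median of 22.3 CPM. The groups did not overlap. On plate 2 the solvent wells were themselves higher, with a mean of 48.6 ± 17.9 CPM, against 15.7 ± 9.29 CPM on plate 1 and 16.8 ± 10.9 CPM on plate 3 (SD, n = 8 each). The log2 fold change was 3.12 with a standard error of 0.42 and an edgeR adjusted p of 5.92e-08. With the solvent wells summed per plate, the edgeR adjusted p was 2.48e-05.

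ENSOMYG00000027172 had the largest fall under the same rule. It had 0, 1 and 0 counts in the met wells of plates 1, 2 and 3, where 1 count on plate 2 corresponds to 19.6 CPM, against 181 to 443 CPM in the solvent wells, with a median of 270 CPM. All solvent wells held more than any met well, and the spread among solvent wells was moderate, at 273 ± 68.9 CPM (SD, n = 24). Pooled over the met wells, the level was 52.4-fold lower in met wells than the solvent mean. The exact 95% Poisson interval was 9.40-fold to 2069-fold, which treats reads as independent and covers counting error at most. The fitted log2 fold change was -5.53 with a standard error of 0.59 and an edgeR adjusted p of 1.13e-10, or 2.30e-07 with the solvent wells summed per plate. Its size rested on single counts: it was -8.67 without the met well of plate 2, which held the 1 count, where the value depends on a prior count, -4.84 without that of plate 1, and -4.28 with deeper wells thinned to 48188 counts. The ID was called in each case, and its adjusted p ran from 6.12e-12 (edgeR with the plate block) to 0.000167 (DESeq2) over its alternatives.

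ENSOMYG00000005032 had the second largest fall under that rule. It had 0, 1 and 1 counts in the met wells, at 0, 19.6 and 19.4 CPM, against 74.6 to 1470 CPM in the solvent wells, with a median of 373 CPM. The groups did not overlap, although the solvent wells varied widely, at 433 ± 318 CPM (SD, n = 24). Solvent means were 639 ± 418 CPM on plate 1, 245 ± 137 CPM on plate 2 and 416 ± 223 CPM on plate 3 (SD, n = 8 each). The pooled level was 41.6-fold lower in met wells, with an exact 95% Poisson interval of 11.5-fold to 343-fold. The fitted log2 fold change was -5.27 with a standard error of 0.98 and an edgeR adjusted p of 3.09e-05, or 7.24e-06 with the solvent wells summed per plate. The log2 fold change was -4.56 without the met well of plate 1 and -5.89 without that of plate 3, and the ID was called in both cases.

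**Figure D2:**
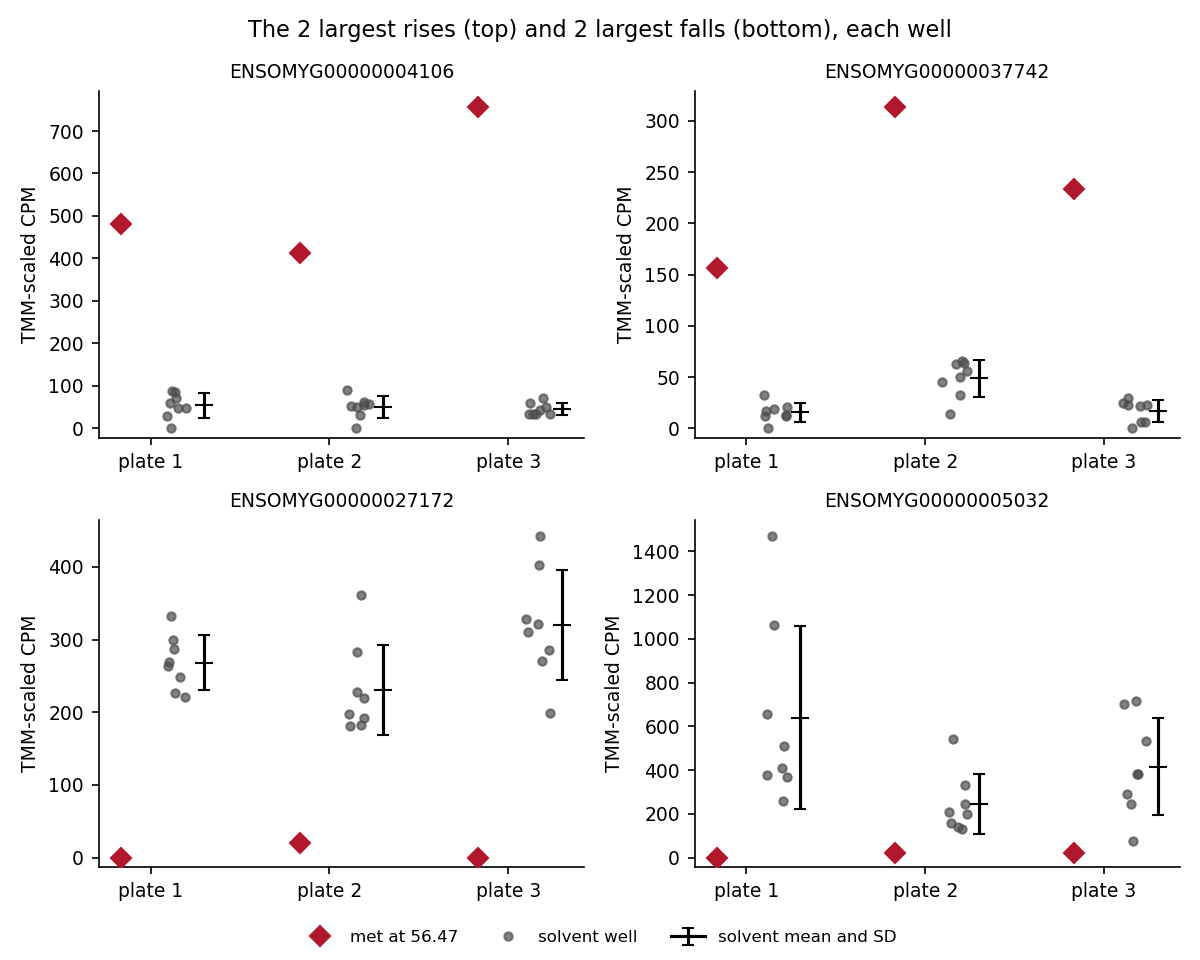
TMM-scaled CPM (vertical axis) of the 4 named IDs in each well by plate (horizontal axis), with met wells as red diamonds to the left of the solvent wells in grey, and the solvent mean ± SD of 8 wells per plate as a bar. The met wells lie above all solvent wells for ENSOMYG00000004106 and ENSOMYG00000037742 and below all of them for ENSOMYG00000027172 and ENSOMYG00000005032.

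The 3 plates gave responses of unequal size. Each met well was set against the 8 solvent wells of its own plate, as log2 of CPM plus 2. Of the 1031 called IDs, 960 had the sign of the call on all 3 plates, 303 of them higher and 657 lower. The calls were made from these same 3 met wells, so this agreement is partly set by the calls and is not a replication. The median size in the direction of the call was 2.11 on plate 1, 1.19 on plate 2 and 2.23 on plate 3, on the log2 scale. Across the 3795 tested IDs, the plate folds correlated with Pearson's r = 0.51 and Spearman's rho = 0.54 between plates 1 and 3, with r = 0.26 and rho = 0.32 between plates 1 and 2, and with r = 0.23 and rho = 0.27 between plates 2 and 3. These are correlations across IDs of 1 pair of wells each, and IDs are not independent replicates. The met well of plate 2 was also the shallowest of the 3, and the part of its depth in its smaller response was not tested.

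To look at a response in wells that did not choose the IDs, the calls were made on 2 plates and read on the remaining plate. Without plate 1, 421 of 3650 IDs (11.5%) were called, and 96.7% of them had the same direction on plate 1, with a median size of 1.96 on the log2 scale. Without plate 3, 625 of 3433 IDs (18.2%) were called, and 94.4% had the same direction on plate 3, with a median size of 1.91. Both sizes were close to the sizes fitted by edgeR on the 2 plates that made the calls, 2.02 and 1.91. Without plate 2, 1123 of 5000 IDs (22.5%) were called, and 79.3% had the same direction on plate 2. The median size there was 0.76 on the log2 scale, against a fitted 2.40 on plates 1 and 3. In each case the 2 sizes are unlike measures. Folds on the remaining plate add 2 CPM, while fitted values of IDs with no count in the calling met wells depend on a prior count. Among all IDs tested in these fits, 41.8%, 40.8% and 35.3% had a fold above 0 on plates 1, 2 and 3. With 1 met well per plate, the difference between plates has no replicate and was not tested.

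**Figure D3:**
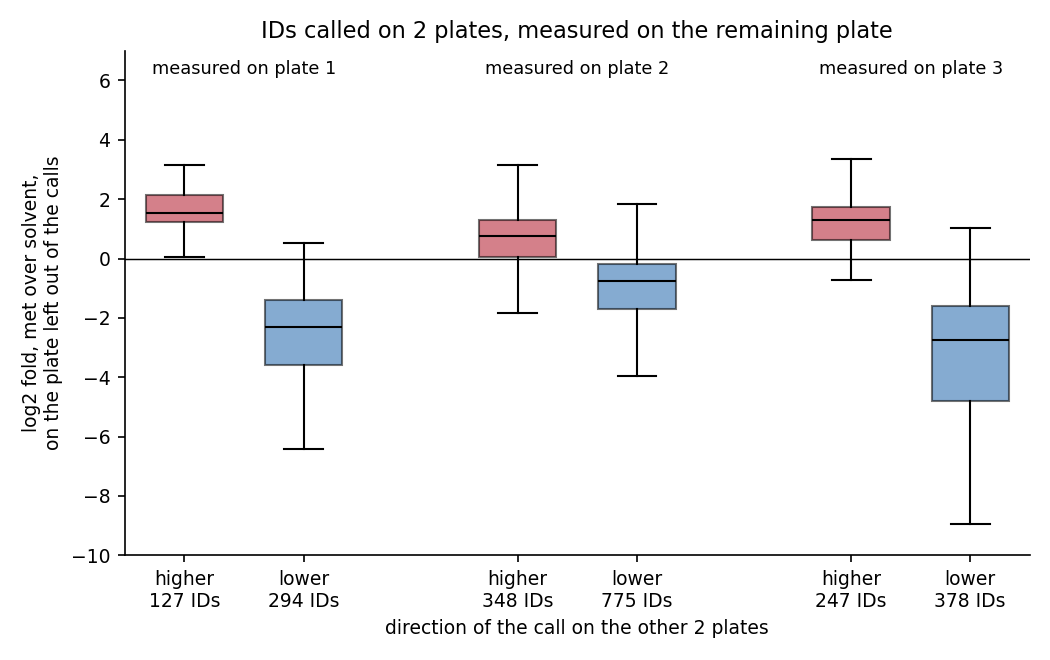
Log2 fold of the met well over the solvent wells of the same plate (vertical axis) for IDs called on the other 2 plates, by the direction of the call (horizontal axis, red higher and blue lower). Boxes span the quartiles with the median as a line, whiskers reach 1.5 times the box height at most, and outlying IDs are not drawn. Medians of the higher and lower IDs are 1.54 and -2.32 on plate 1, 0.75 and -0.76 on plate 2, and 1.30 and -2.73 on plate 3.

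The same IDs were also summed as shares of a well's total counts, a measure that uses no scaling between wells. On plate 1, the IDs called higher on plates 2 and 3 took 6.19% of the counts of the met well, against 2.37% ± 0.15 in solvent wells (SD, n = 8). The IDs called lower took 2.85% of the met well and 12.6% ± 0.66 of the solvent wells. On plate 3, the higher IDs took 8.06% in the met well and 3.81% ± 0.23 in solvent wells, and the lower IDs took 2.14% and 12.9% ± 0.66. On plate 2, where 2 of the 4 most counted IDs were left out of the sum, the higher IDs took 19.8% in the met well and 13.5% ± 1.12 in solvent wells, and the lower IDs took 13.5% and 22.2% ± 1.74. On every plate the met well lay outside the range of its 8 solvent wells in both directions. The 95% Wilson intervals of the shares in met wells were all narrower than 1 percentage point and cover counting error at most. A well's shares sum to 100%, so that a rise of some IDs lowers the share of the rest.

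**Figure D4:**
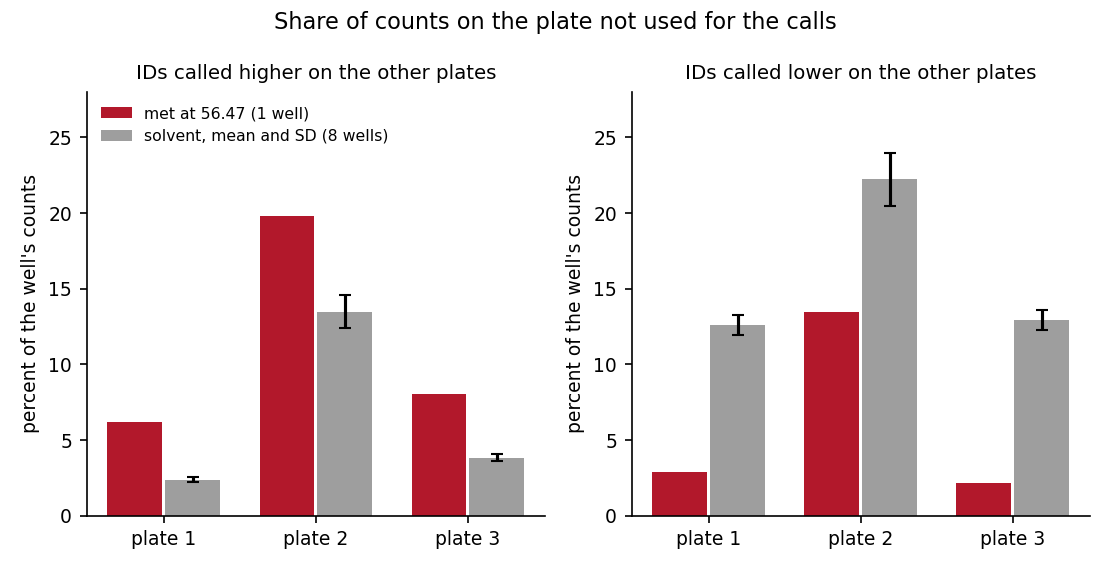
Percent of a well's counts (vertical axis) in IDs called higher (left) or lower (right) on the other 2 plates, for the met well in red and the mean ± SD of 8 solvent wells in grey, by plate (horizontal axis). The 4 most counted IDs are left out of the summed IDs but remain in the well's total. The lower IDs fell to 2.85%, 13.5% and 2.14% in the met wells of plates 1, 2 and 3, against 12.6%, 22.2% and 12.9% in solvent wells.

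A few transcripts took a large part of each well's counts. The 4 most counted IDs held 54.7%, 30.1% and 51.0% of the counts in the met wells of plates 1, 2 and 3 (95% Wilson intervals under 1 percentage point wide), against 46.4% ± 3.19, 24.8% ± 2.84 and 39.4% ± 2.94 in the solvent wells (SD, n = 8 each). Each met well was above all 8 solvent wells of its plate. Pooled over plates, the means were 45.3% ± 13.3 in met wells (n = 3) and 36.9% ± 9.63 in solvent wells (n = 24), a difference of 8.42 percentage points with a two-sided exact permutation p of 0.186. When the label was permuted within plates only, a test added after the data were seen, p was 0.00137, the smallest that its 729 arrangements allow. The exact permutation p over all wells was 0.0349 for the 10 most counted IDs and 0.0123 without the met well of plate 2. For the 4 most counted IDs and all 3 met wells, the larger share thus passed the threshold within plates and not across them. The solvent wells themselves differed widely between plates. Within each plate the met well and the solvent wells were in different library pools, so met and pool cannot be told apart in the test within plates. The imz wells and the lower met concentrations in the met pools were not part of that test.

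The number of IDs detected at one total depth was lower in met wells on plates 2 and 3. With each well thinned to 48188 counts, 6279, 7408 and 6580 IDs had at least 1 count in the met wells of plates 1, 2 and 3, against 6571 ± 227, 8446 ± 509 and 7771 ± 542 in the solvent wells (SD, n = 7 each, as 3 solvent wells were shallower than that). On plate 1 the met well lay inside the solvent range, whose lowest well had 6262 IDs, and on plates 2 and 3 it lay below the lowest solvent wells, at 7814 and 6759 IDs. The means were 6756 ± 585 in met wells (n = 3) and 7596 ± 901 in solvent wells (n = 21), with a two-sided exact permutation p of 0.130. Permuted within plates, a test added after the data were seen, the exact permutation p was 0.00391. This test too used no other wells of the met pools, so it cannot tell met and library pool apart. This equal total left fewer counts for all other IDs in met wells, since the 4 most counted IDs took more of them there. In a further check added after the data were seen, those 4 IDs were removed and the number of IDs expected at 32858 remaining counts was computed. It was 7856, 7316 and 7898 in the met wells of plates 1, 2 and 3, against 7483 ± 80.6, 8079 ± 454 and 8336 ± 385 in the solvent wells (SD, n = 7 each). The met well of plate 1 then lay above its solvent wells, that of plate 2 below them and that of plate 3 among them, with a two-sided exact permutation p of 0.360 over all wells and 0.254 within plates. With the 4 most counted IDs set aside, the difference did not pass the threshold and its direction differed between plates. With 3 met wells, this does not show that no difference was present.

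The lower met concentrations give the context of these changes within the same plates. At 18.82, the next lower concentration, 12 of 3795 IDs (0.316%) were called by edgeR, all higher, and at 6.27 there were 2 (0.0527%). From 2.09 downward there were 0 at each of 5 concentrations, with 109 to 142 IDs at an unadjusted p below 0.05. At 18.82 the IDs that were called higher at 56.47 had a median log2 fold change of 0.30, and those called lower had one of -0.06, against -0.01 over all tested IDs; these contrasts share the solvent wells.

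ENSOMYG00000004106 was among the IDs called at 18.82. Over the met concentrations in ascending order, from 0.03 to 56.47, its means were 75.1, 51.4, 57.2, 48.8, 64.6, 103, 124 and 550 CPM (n = 3 each), against 49.6 CPM in solvent wells. Its log2 fold change was 1.20 at 18.82 (standard error 0.29, edgeR adjusted p = 0.0335) and 0.90 at 6.27 (edgeR adjusted p = 0.999). ENSOMYG00000037742 averaged 52.5 ± 18.9 CPM at 6.27 and 56.5 ± 4.31 CPM at 18.82 (SD, n = 3 each), against 27.0 CPM in solvent wells, and was not called there. ENSOMYG00000027172 averaged 189 ± 29.3 CPM and ENSOMYG00000005032 averaged 323 ± 91.5 CPM at 18.82 (SD, n = 3 each), and neither was called below 56.47.

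**Figure D5:**
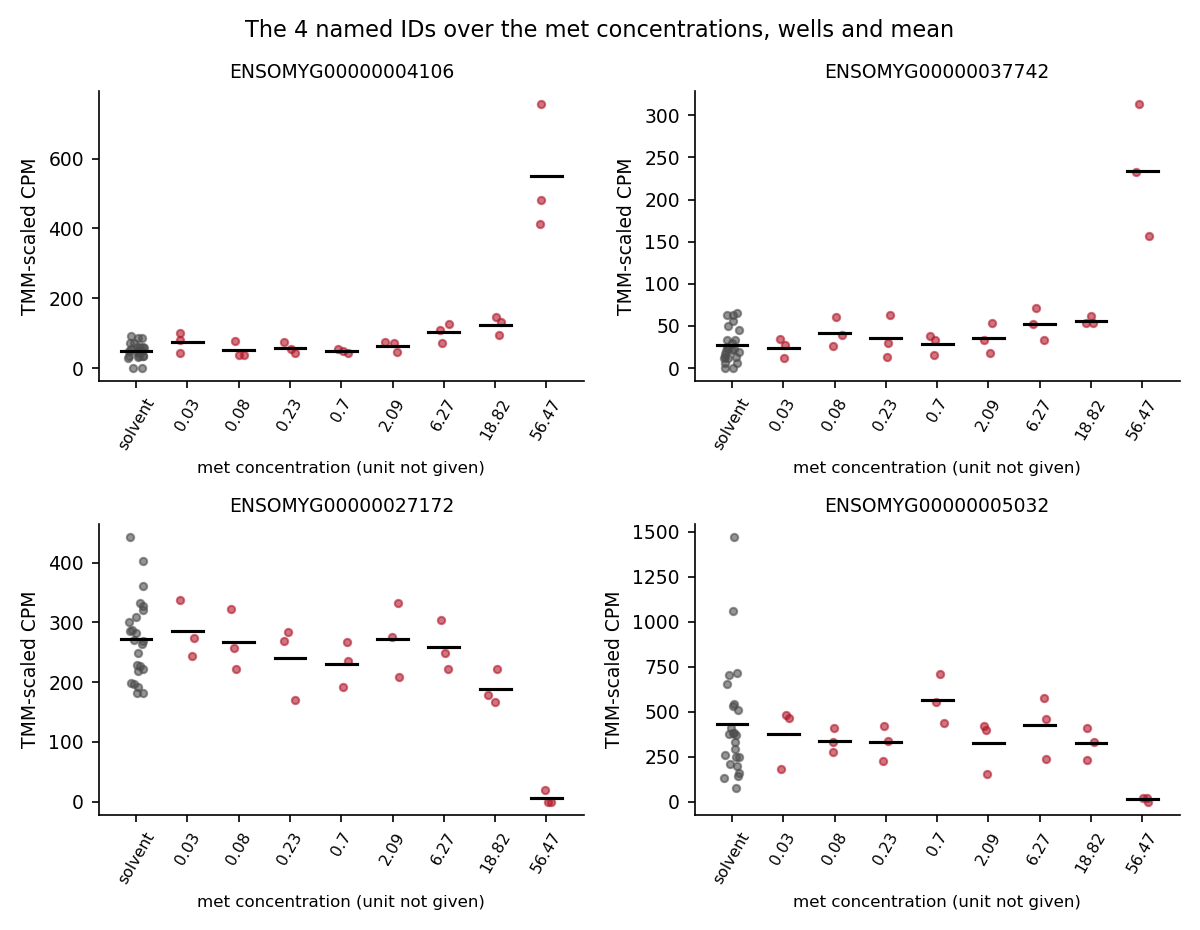
TMM-scaled CPM (vertical axis) of the 4 named IDs in solvent wells (grey) and in met wells (red) by met concentration in ascending order (horizontal axis, evenly spaced steps, unit not given), with each group's mean as a line. The met wells at 56.47 stand apart from all lower concentrations, and ENSOMYG00000004106 averages 103 CPM at 6.27 and 124 CPM at 18.82.

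The chemical imz served as a comparison in which the library pool, the plate and row H were the same. At its highest concentration, imz gave 0 of 2869 called IDs against solvent by edgeR (0%), with 84 at an unadjusted p below 0.05, and DESeq2 also called 0. Met against imz gave 570 of 2500 IDs (22.8%), of which 219 were higher and 351 lower in met wells, and DESeq2 called 557, of which 320 were higher and 237 lower. Leaving out the met well of plate 1 or plate 3 gave 274 calls of 3216 and 346 of 3178, and no filter on low counts gave 266 of 35866. The median size of the called differences was 1.88 on the log2 scale. ENSOMYG00000004106 was higher in met than in imz wells by 2.97 on the log2 scale (standard error 0.42, edgeR adjusted p = 2.28e-06), and ENSOMYG00000037742 by 2.98 (standard error 0.68, adjusted p = 0.00125). ENSOMYG00000027172 was lower in met than in imz wells, with a log2 difference of -5.03 (edgeR adjusted p = 1.33e-06), as was ENSOMYG00000005032 with -4.85 (adjusted p = 0.00227). Met and imz wells did not differ in pool, plate or row, but the imz wells were deeper, at 134924 to 364407 counts.

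Set against the other chemicals with large responses, met differed from dip in few IDs at the available precision. Against its own solvent wells, dip at 57.64 changed 1588 of 3450 IDs. The test of the difference between the met and the dip response, which shares no solvent well, called 7 of 3841 IDs (0.182%) by edgeR, with 2 higher and 5 lower under met, and 373 IDs had an unadjusted p below 0.05. With plate added as a replicate block, the fit called 19, DESeq2 called 14, all higher under met, and 2 IDs were called by both tools. Single wells decided this count, which was 6 of 5575 without the met well of plate 1, 41 of 5488 without that of plate 2 and 0 of 5448 without that of plate 3. With no filter on low counts it was 1 of 37550. The median standard error of a difference was 0.73 on the log2 scale and the called differences were 1.73 or larger in size, with a median of 3.10. The IDs that were not called are not shown to respond alike to both chemicals. The chemicals, concentrations, passages and plates all differed between the 2 arms and cannot be told apart. In separate fits against solvent, ENSOMYG00000004106 had a log2 fold change of 3.33 under met and 1.07 under dip. It was among the IDs called in the test of the difference, a fit of its own, at 2.38 (standard error 0.40, edgeR adjusted p = 0.000489). The other 3 named IDs were not called, with log2 differences of 0.95 for ENSOMYG00000037742, -2.19 for ENSOMYG00000027172 and -3.21 for ENSOMYG00000005032. Against its own solvent wells, dip changed these 3 IDs by 2.29, -3.24 and -1.98 on the log2 scale, in the same order. Each was called by edgeR, in the direction seen under met, so their changes were not particular to met.

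Between met and col, 9 of 2908 IDs (0.309%) were called by edgeR, with 7 higher and 2 lower in met wells, and 328 had an unadjusted p below 0.05. With plate added as a replicate block, the fit called 28, and DESeq2 called 6, all among the 9. Leaving out the met well of plate 1, 2 or 3 gave 5 of 2927, 7 of 2855 and 14 of 2890, and no filter on low counts gave 0 of 35609. Only 2 col wells were kept, those of plates 1 and 3, while met also had its well of plate 2. The median standard error was 0.96 on the log2 scale, the least precise of these comparisons. Against solvent, col called 719 of 3187 IDs, and its kept wells were as shallow as those of met, with 77699 and 101786 counts. ENSOMYG00000004106 was 1.65 higher in met than in col wells on the log2 scale (standard error 0.52, edgeR adjusted p = 0.236), and the other 3 named IDs had edgeR adjusted p between 0.486 and 0.665. Against solvent, the log2 fold changes under col were 1.69 for ENSOMYG00000004106, 2.18 for ENSOMYG00000037742 and -3.57 for ENSOMYG00000027172, all called by edgeR. ENSOMYG00000005032 had -2.25 and was not called (edgeR adjusted p = 0.0617). All 4 had the direction seen under met, but met and col share their solvent wells. For that reason their sets of calls against solvent were not compared with each other.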

How the data were processed

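RNA of single wells was tagged and pooled in libraries with a QIAseq UPXome kit, per the labels' protocols. The deposited values are raw counts, whole numbers that differ in total between wells, for each Ensembl gene ID. Which aligner, counter, build and annotation the authors used is not given in the sources used here. Each column was assigned to a sample through the library and well that its name holds, and 0 columns were left over. The 24 wells of 1 further chemical were not analysed here. Rows without a gene ID held no part of the counts (0 rows). The solvent table also carries a class row that divides the 24 solvent wells into 12 and 12 and crosses plate 2, so each class was also used alone.

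The main model held all met concentrations and the solvent wells of plates 1 to 3 and was fitted with edgeR 4.0.16 (filterByExpr, TMM, quasi-likelihood test, two-sided) in R 4.3.3, with a Benjamini-Hochberg FDR of 0.05 over all IDs tested. An ID passes this filter with enough counts in as many wells as the smallest group holds, so an ID seen in met wells alone could enter. Standard errors are the log2 fold change divided by the square root of the F statistic. CPM are relative to the counts in tested IDs times the TMM factor. Folds per plate add 2 CPM to both groups. The named IDs had to pass the FDR with at least 2-fold change, the same direction on all 3 plates and a mean of 100 CPM in the higher group; as no ID could be paired with a name, the 2 largest rises and 2 largest falls were taken. Planned gene lists and cell type markers could not be used for the same reason. Wells were compared with DESeq2 1.42.0 as an alternative, on the same IDs; exact permutation tests over wells used scipy 1.17.1 in Python 3.11.15. The members, comparisons and rules were chosen with earlier results of these data known.

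No pair of wells agreed within sampling noise: chi-square per degree of freedom was at least 3.57 among met wells and at least 1.68 among the 276 pairs of solvent wells. The replicate number marks a cell passage and a plate, per the design text, which pairs the met and solvent wells of a plate. Their deviations from the group means correlated by 0.05, 0.05 and 0.09 on plates 1, 2 and 3, against -0.13 to 0.06 between plates. The solvent wells of 1 plate share a passage, so p-values over 24 wells also count spread within a plate. Intervals treat reads as independent and cover counting error at most. Reads without molecular identifiers are not independent molecules, so the intervals can be too narrow even for counting error.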

Additional observations from a re-analysis of the deposited data

How the results depend on the processing

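The number of IDs changed by met, 1031 of 3795 in the main fit, stayed between 805 and 1142 under most alternatives, while the number tested differed. Of the same 3795 IDs, DESeq2 called 937, RLE factors 1028 and the plate as a replicate block 1142. With no filter on low counts it was 872 of 37748, a far smaller share. Only the met and solvent wells of this comparison gave 835 of 2409, and solvent wells of row H gave 805 of 3469. Solvent wells summed per plate gave 872 of 3839, and removal of the 4 most counted IDs gave 1056 of 3549. A further 3 alternatives were added after the data were seen. Solvent wells of either header class gave 950 of 3295 and 992 of 3513, and no solvent well shallower than the met wells gave 1069 of 3556. Keeping wells under the minimum changed nothing, since no well of this comparison was under it. The count was 679 of 3795 with the lowest met concentration as control. It was 371 of 814 with deeper wells thinned to 48188 counts, where fewer IDs pass the filter. Leaving out 1 met well gave 480 of 4764 without plate 1, 1065 of 4646 without plate 2 and 660 of 4713 without plate 3. The difference from dip gave 7 of 3841 IDs, 14 with DESeq2, 19 with the replicate block and 1 of 37550 with no filter. It was 6 of 5575 without the met well of plate 1, 41 of 5488 without plate 2 and 0 of 5448 without plate 3. Met against col gave 9 of 2908, 28 with the block and 0 of 35609 with no filter. It was 5 of 2927 without the met well of plate 1, 7 of 2855 without plate 2 and 14 of 2890 without plate 3. Met against imz gave 570 of 2500, 666 with the block and 266 of 35866 with no filter. It was 274 of 3216 without the met well of plate 1, 649 of 3147 without plate 2 and 346 of 3178 without plate 3. The cause of these shifts was not tested.

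The difference in the share of the 4 most counted IDs was 10.2 percentage points (two-sided exact permutation p = 0.0349) for the 10 most counted IDs, and 3.69 to 16.0 leaving out 1 met well (p = 0.0123 by the exact permutation test without plate 2). Permuted within plates, as a replicate block, the difference of 8.42 passed the threshold, and so did that of -840 in detected IDs, which was -602 to -1166 leaving out 1 met well and -276 without the 4 most counted IDs, where it did not pass with or without the block. The 4 named IDs kept their call and direction under each of the 15 or 16 alternatives in which they were tested, with log2 fold changes of 2.66 to 4.04 for ENSOMYG00000004106, 2.49 to 3.55 for ENSOMYG00000037742, -8.67 to -4.28 for ENSOMYG00000027172 and -5.89 to -4.56 for ENSOMYG00000005032. These IDs were chosen for large called changes in the same met wells that the alternatives reuse. Keeping the call is therefore largely set by that choice and is not a replication. ENSOMYG00000037742 has 15 alternatives because it was not tested with thinned wells. With 48188 to 125357 counts in the met wells, IDs below about 15.6 CPM in both groups could not be assessed. The count filter set a further limit, since only 3795 of the 44260 IDs passed it in the main fit. The lowest average abundance among the tested IDs was 16.4 CPM. An ID above that level could still fail the filter, and IDs that failed it were not assessed there.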
